A study of Homo sapiens with 12 samples.

Results

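The 4 human HOX clusters were examined in 6 lists of called regions, 2 of the histone mark H3K18ac and 4 of sites of bromodeoxyuridine (BrdU) incorporation. A region was taken as a member when its midpoint lay in 1 of 4 intervals of the genome build hg19. These were chromosome 7 from 27.12 to 27.25 Mb for HOXA, chromosome 17 from 46.60 to 46.82 Mb for HOXB, chromosome 12 from 54.32 to 54.46 Mb for HOXC and chromosome 2 from 176.94 to 177.07 Mb for HOXD. Of 169273 regions in the 6 lists, 49 were members: 36 of 84471 in the IMR90 H3K18ac list, 9 of 65946 in the H1 H3K18ac list, 2 of 5743 in the IMR90 BrdU list, 2 of 5086 in the H1 control BrdU list, and 0 of 6272 and 0 of 1755 in the Saos-2 and H1 knockdown BrdU lists. Members were chosen by position, but the clusters were selected on the deposited regions themselves: the highest-scoring region of the IMR90 H3K18ac list was already known to lie in the HOXB interval. The H3K18ac values are therefore a description, with no test.

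The study related DNA synthesis to histone acetylation in 3 established cell lines: H1 embryonic stem cells grown in mTESR1, IMR90 primary lung fibroblasts and Saos-2 osteosarcoma cells, both grown in DMEM with serum. H3K18ac was immunoprecipitated from 5000000 untreated H1 or IMR90 cells. Newly made DNA that carried the thymidine analogue BrdU was pulled down with an antibody from untreated IMR90 and Saos-2 cells and from H1 cells collected 72 h after transfection with either a non-targeting siRNA (control) or siRNAs against the acetyltransferase genes EP300 and CREBBP (knockdown), both with HA 1077 added at 10 µM. There was 1 library per group. Differences between cell lines or treatments thus have no replicate error beside them, and the sequencing depth behind the lists is unknown.

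HOX genes encode homeodomain transcription factors that give cells their position along the body axis. Within a cluster the genes stand in the order in which they are used: the low-numbered genes at the 3' end act in the hindbrain, neck and thorax, and the high-numbered genes at the 5' end act in the trunk, limbs and urogenital tract. In embryonic stem cells the clusters are known to be held silent under Polycomb marks, while fibroblasts keep the HOX pattern of the site they came from. H3K18ac is laid down by p300 and CBP at active promoters and enhancers. The 38 genes considered were HOXA2 to HOXA13, HOXB1 to HOXB13, HOXC4 to HOXC13 and HOXD1 to HOXD13. Per the order of the genes in RefSeq, the numbers rise with chromosome position in HOXA and HOXB and fall in HOXC and HOXD. Distances below are therefore counted from the interval edge on the low-numbered side. No hg19 annotation was used here, so a region is placed on the low- or high-numbered side of its cluster and not in a named gene, exon or intron.

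Promoter sequences from RefSeq (GRCh38.p14, 250 bases before to 50 after the start) are shown for 4 genes, 3 of the fourth paralogue group, whose members lie on the low-numbered side of their clusters, and HOXA13 from the high-numbered end of HOXA. They were picked to show sequence from both ends of a cluster that held the mark in IMR90 (HOXA) and from a pair of clusters that did not. Capitals mark the dinucleotide CG, which reads the same on both strands.
HOXA4: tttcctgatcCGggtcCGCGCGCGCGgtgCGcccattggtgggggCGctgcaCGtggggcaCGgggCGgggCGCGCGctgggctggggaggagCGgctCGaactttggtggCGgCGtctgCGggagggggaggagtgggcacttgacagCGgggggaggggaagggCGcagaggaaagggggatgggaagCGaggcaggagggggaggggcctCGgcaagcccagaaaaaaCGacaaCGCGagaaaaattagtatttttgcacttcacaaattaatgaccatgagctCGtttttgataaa
HOXA13: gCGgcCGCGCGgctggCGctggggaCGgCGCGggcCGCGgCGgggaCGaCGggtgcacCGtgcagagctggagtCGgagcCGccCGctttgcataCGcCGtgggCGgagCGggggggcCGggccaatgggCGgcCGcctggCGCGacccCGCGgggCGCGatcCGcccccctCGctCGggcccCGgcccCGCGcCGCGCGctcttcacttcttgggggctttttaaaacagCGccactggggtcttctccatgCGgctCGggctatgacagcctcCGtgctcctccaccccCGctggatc
HOXC4: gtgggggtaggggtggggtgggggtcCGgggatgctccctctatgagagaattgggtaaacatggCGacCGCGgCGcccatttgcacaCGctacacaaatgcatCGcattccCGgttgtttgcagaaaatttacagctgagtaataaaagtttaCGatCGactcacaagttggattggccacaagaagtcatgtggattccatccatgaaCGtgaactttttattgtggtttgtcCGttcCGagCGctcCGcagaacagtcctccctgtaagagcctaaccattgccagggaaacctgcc
HOXD4: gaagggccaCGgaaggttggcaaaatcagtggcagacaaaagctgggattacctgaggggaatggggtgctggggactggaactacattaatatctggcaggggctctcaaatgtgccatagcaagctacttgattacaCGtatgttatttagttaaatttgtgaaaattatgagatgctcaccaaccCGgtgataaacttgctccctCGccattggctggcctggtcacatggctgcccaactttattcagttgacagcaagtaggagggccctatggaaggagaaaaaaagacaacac
The HOXA4 window held 27 CG, HOXA13 44, HOXC4 15 and HOXD4 4. Over 27305 genes with 1 window each, the median was 14 and 95.8% held at least 1 CG. Entries matched 20 of the 38 HOX genes, 9 in HOXA, 1 in HOXB, 2 in HOXC and 8 in HOXD. Their windows held from 4 to 44 CG with a median of 22.5, and 16 of the 20 were at or above the median of all genes. The median was 22 in HOXA, 15 in HOXC and 24.5 in HOXD, and the single HOXB window held 11. HOXC4 and HOXC5 are listed with the same window. Whether these windows lay in a called region was not analysed here, since the coordinates belong to different builds.

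In IMR90 fibroblasts H3K18ac covered long stretches of HOXA and HOXB and was not called anywhere in the HOXC and HOXD intervals. HOXA held 23 regions over 38.6 kb, or 29.7% of its interval. HOXB held 13 regions over 59.7 kb, or 27.1%. The autosomal mean count was 3.75 regions for an interval of the length of HOXA and 6.35 for one of the length of HOXB. At least as many regions were held by 2.11% of 130 kb tiles and 18.1% of 220 kb tiles, so HOXB stood out less by count than by cover. By the autosomal mean of 1.35% cover, an interval of the length of HOXA would hold 1.76 kb and one of the length of HOXB 2.98 kb, so the cover was 21.9 and 20.0 times that mean. Of all autosomal tiles of 130 kb, 0.0633% (14 of 22132) were covered at least as much as HOXA, and of all tiles of 220 kb, 0.0383% (5 of 13071) at least as much as HOXB. The tiles stood on a fixed grid that can cut a dense block into parts. The intervals were drawn around the clusters, so these shares may be too low. Empty intervals like HOXC and HOXD were common among all autosomal tiles, which include assembly gaps: 46.0% of 140 kb tiles and 47.5% of 130 kb tiles held no region. Tiles of like gene content were not compared.

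**Figure D1:**
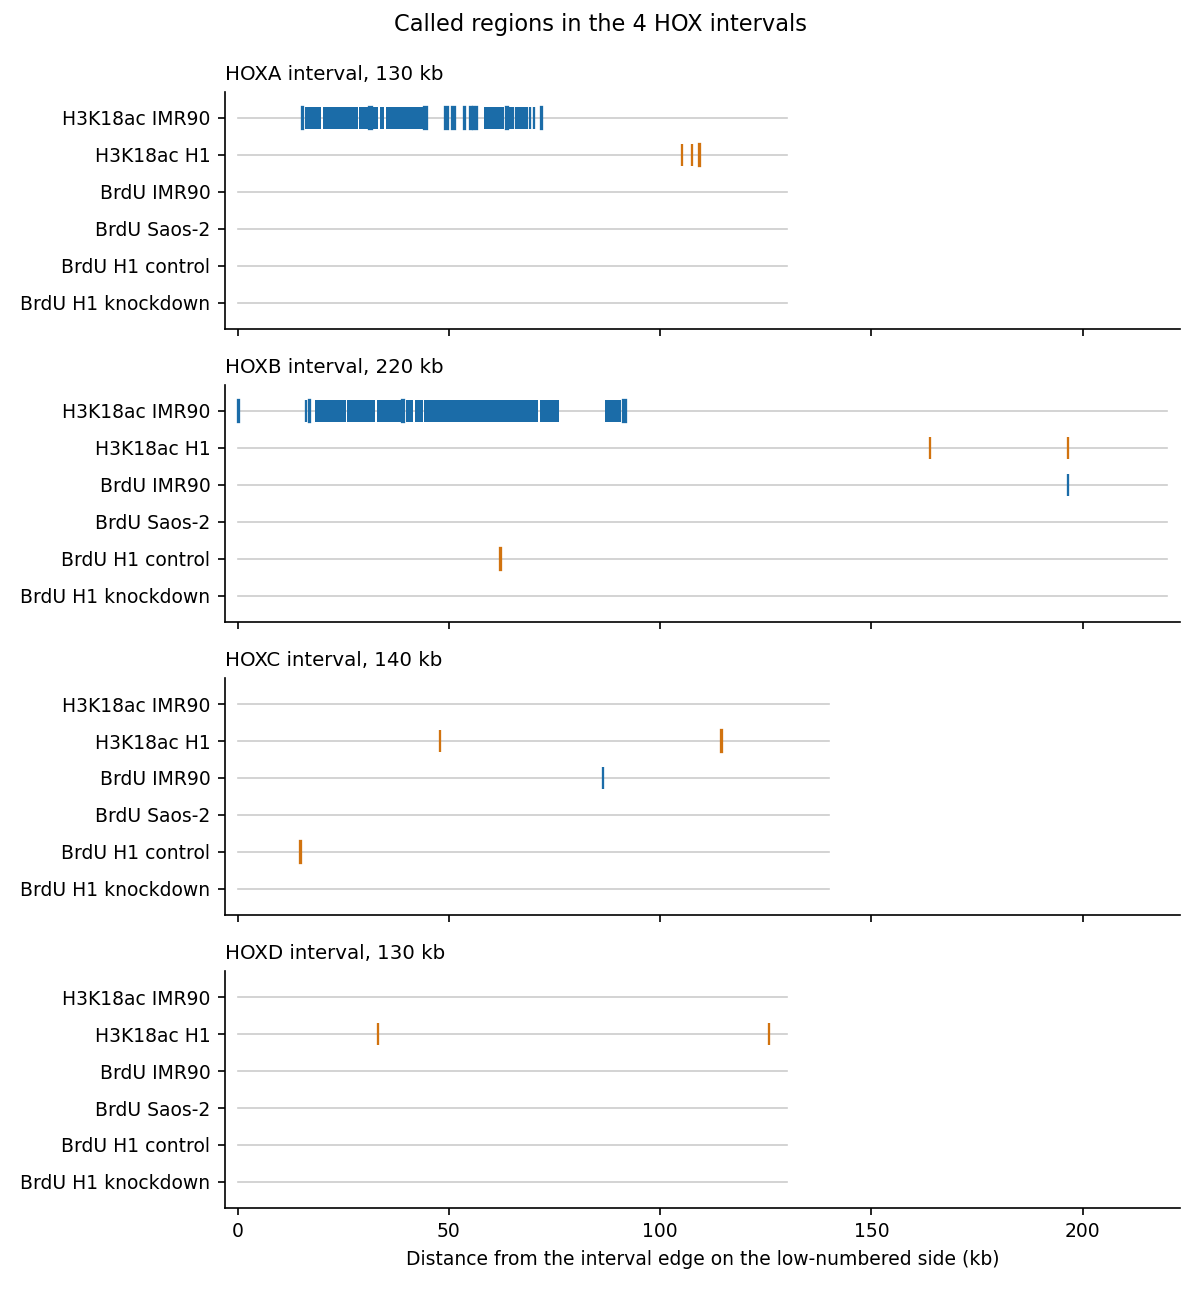
Called regions in the 4 HOX intervals, 1 row per list, by distance in kb from the interval edge on the low-numbered side. Filled boxes are regions, with those under 1000 bp drawn at a minimum line width. IMR90 H3K18ac lies mostly on the low-numbered side of the midpoint of the HOXA and HOXB intervals, and the 9 H1 regions lie elsewhere.

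The mark in IMR90 lay mostly or wholly on the low-numbered side of the interval's midpoint in both clusters. In HOXA, 34.9 kb of the covered length, or 90.4%, lay on the low-numbered side of the interval's midpoint, and 3.7 kb beyond it. In HOXB all 59.7 kb lay on the low-numbered side. The last IMR90 region of HOXA ended at 27192100, after which 57.9 kb to the interval edge were free of regions. HOXA10, HOXA11 and HOXA13, genes of the limb and urogenital tract, stand at that end of the cluster, and HOXA7 and HOXA9 come just before them. Which HOXA genes lay in the free stretch was not analysed, for want of hg19 gene positions. In HOXB the last region ended at 46692000 and the remaining 128.0 kb were free. HOXB13, a gene of the hindmost axis, lies at that end, apart from the rest of its cluster. Most HOXB genes may therefore lie on the low-numbered side of the midpoint. The HOXB share by midpoint thus does not set low-numbered genes apart from the others. Without hg19 gene positions, which HOXB genes lay under the mark was not analysed.

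Along HOXA the IMR90 cover came in a pair of dense stretches with a sparse one between them. When regions no more than 1 kb apart were joined into domains, the first stretch was a domain of 29.6 kb at 27135301 to 27164900 that joined 9 regions and was 89.5% covered. Its longest regions measured 8700 bp (27155101 to 27163800, score rank 17 in the list) and 8200 bp (27140301 to 27148500, score rank 48). After it, 3 smaller domains had 1.4, 0.3 and 0.8 kb covered. The next dense stretch was a domain of 11.9 kb at 27178301 to 27190200, 78.2% covered, whose longest region measured 4800 bp (27178301 to 27183100, score rank 318). The 10 kb bins show the same shape: from 20 to 70 kb the cover per bin was 94%, 86%, 52%, 36% and 75%, and from 70 to 80 kb it was 4%. HOXA2, HOXA3 and HOXA4, which pattern the hindbrain and neck, and HOXA5, which is needed for lung and airway formation in mice, are the genes listed first on this side.

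Along HOXB most of the cover lay in 1 long domain. The block of 26800 bp at 46644201 to 46671000 was the longest of all 84471 IMR90 regions and had the highest score. It was preceded by regions of 7300 bp (46618301 to 46625600, score rank 23), 6600 bp (46626001 to 46632600, score rank 46) and 5600 bp. Joined over gaps of up to 1 kb, 8 regions formed a domain of 57.7 kb at 46618301 to 46676000, of which 54.6 kb, or 94.6%, was covered. This was the longest of 42641 domains in the list, and the 29.6 kb domain of HOXA ranked 5. The other 3 domains of HOXB were shorter, and the longest of them measured 5.1 kb at 46686901 to 46692000, with 4.5 kb covered. The cover per 10 kb bin was 96%, 86%, 92%, 100% and 100% from 20 to 70 kb, 55% in the next bin, and 31% and 14% in the last that held any. HOXB2, HOXB3 and HOXB4 act in the hindbrain, and HOXB5 acts in the thorax, lung included.

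**Figure D2:**
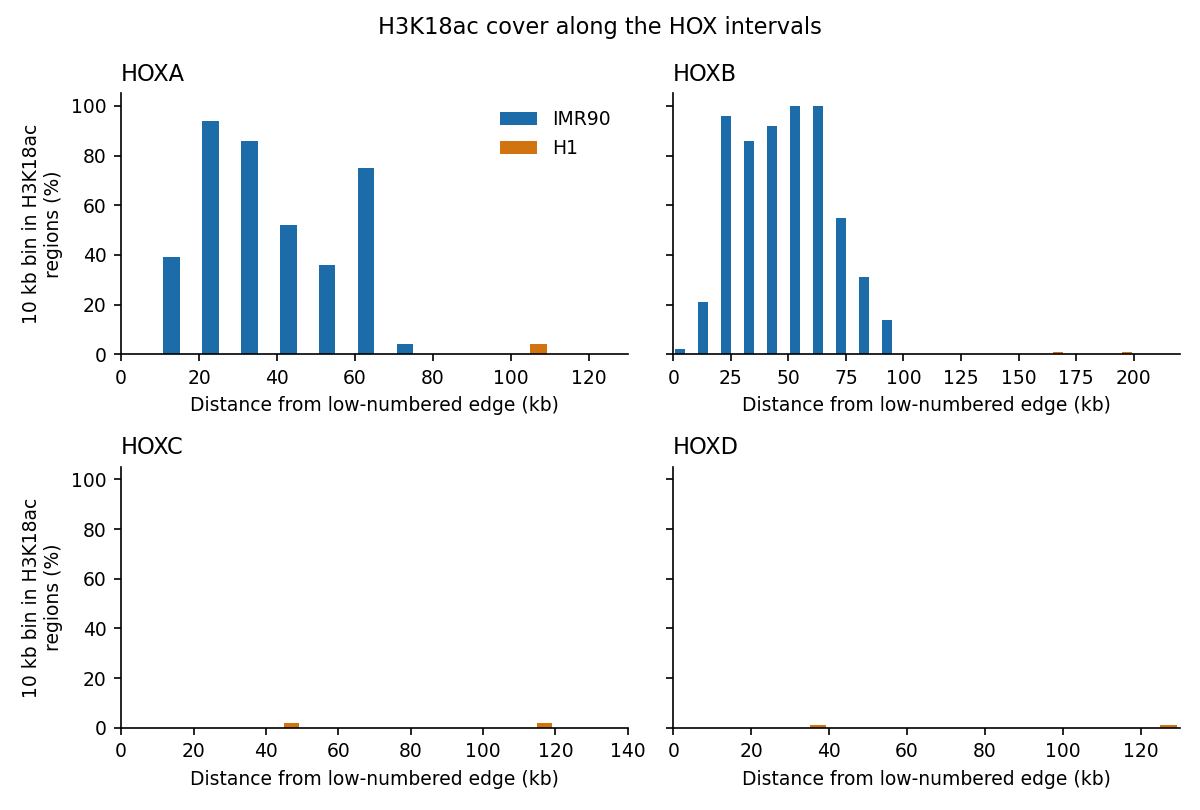
Share of each 10 kb bin (in percent) that lay in H3K18ac regions, by distance from the low-numbered edge in kb, for IMR90 and H1. Bins of HOXB reach 100% in IMR90, and no H1 bin is above 4%.

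The densest bins of the whole list were common in these 2 clusters. On the autosomes 90 of 287824 bins of 10 kb (0.0313%) were covered to at least 80%, and 7 of these were in the HOX intervals, 2 in HOXA and 5 in HOXB. At a cover of at least 50% the numbers were 816 bins (0.284%) on the autosomes and 10 in the HOX intervals.

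**Figure D3:**
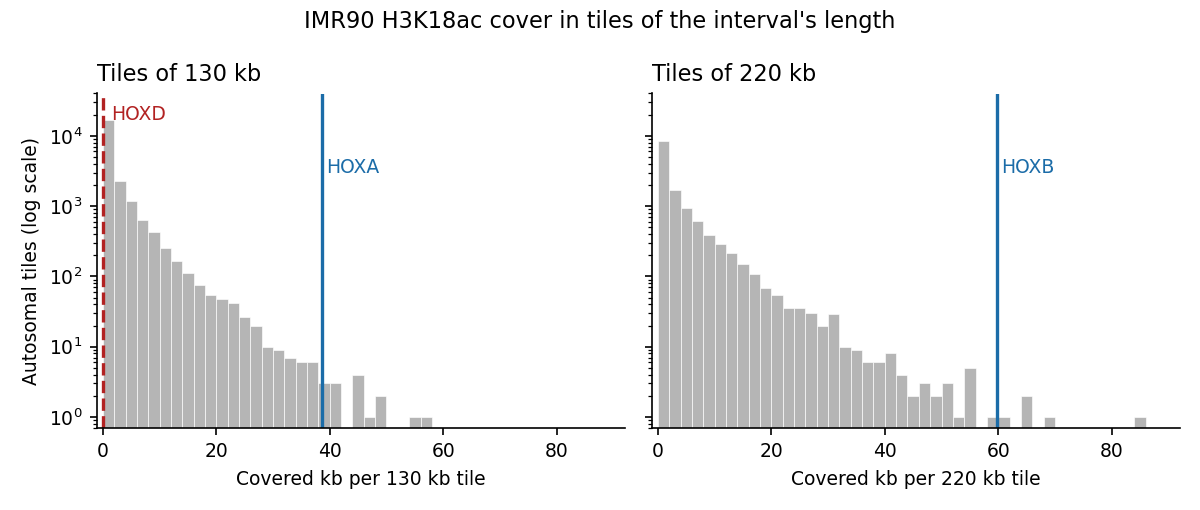
Number of autosomal tiles (log scale) by the kb that IMR90 H3K18ac regions cover in them, for tiles of 130 kb and 220 kb. Solid lines mark HOXA at 38.6 kb and HOXB at 59.7 kb, and the dashed line marks HOXD at 0 kb.

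The cover ended close to the clusters. In the flanks of HOXA, each as long as the interval, IMR90 regions covered 0.4 kb on the low-numbered side and 0.0 kb on the high-numbered side, against 38.6 kb between them. For HOXB the flanks held 7.7 and 3.1 kb against 59.7 kb. The nearest region outside HOXA measured 100 bp and lay 32.6 kb beyond the low-numbered edge, and on the other side none was called within 322.9 kb. The outermost member of HOXB, 200 bp at 46600101 to 46600300, was 0.1 kb inside the edge, and the nearest region outside lay 20.2 kb beyond it. For HOXC the nearest IMR90 regions were 151.2 kb and 118.7 kb from the low- and high-numbered edges, and for HOXD 64.2 kb and 230.4 kb.

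Members of HOXA and HOXB were longer than the rest of the IMR90 list. Their median length was 800 bp against 300 bp over the whole list, and their lengths ranged from 100 to 26800 bp. Regions of 3000 bp or more made up 10 of the 36 members (27.8%) and 0.743% of the other 84435 regions. The members also took 6 of the 100 longest places and 5 of the 100 highest scores. The authors gave each region a score that grows with length, so it was set beside other regions of like length. Per 100 bp window the score had a median of 31.5 in the 10 long members and 32.5 in the other 627 regions of 3000 bp or more, and 5 of the 10 were above the latter. In regions of 1000 to 2900 bp the medians were 25.2 for 7 members and 24.4 for 9391 others, with 5 of the 7 above the latter. In regions of 400 to 900 bp they were 25.1 for 6 members and 18.6 for 25578 others, with 4 of the 6 above. In regions of 100 to 300 bp they were 15 for 13 members and 14 for 48839 others, with 8 of the 13 above.

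**Figure D4:**
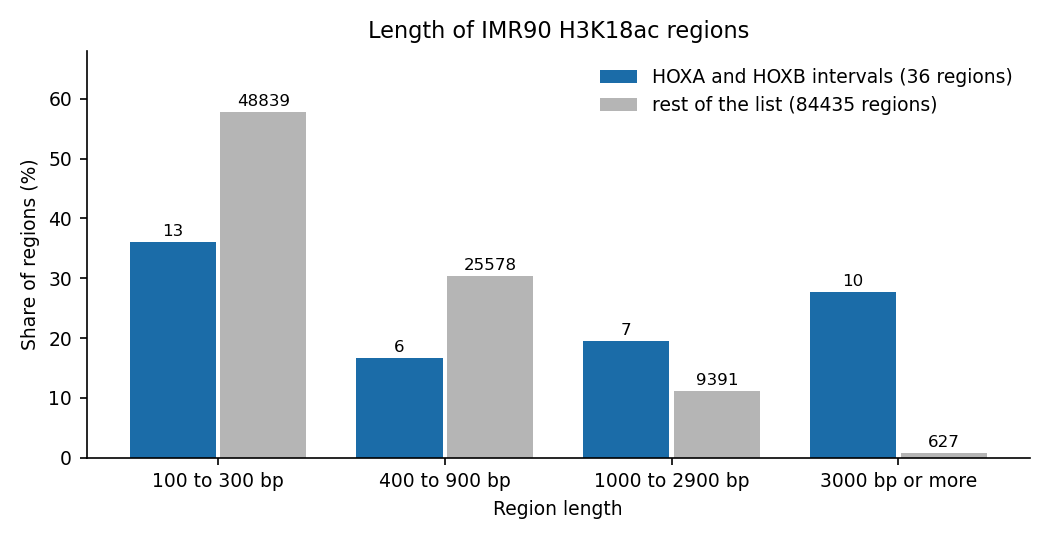
Share of IMR90 H3K18ac regions (in percent) by length class in bp, for the 36 members and the other 84435 regions, with the number of regions above each bar. The class of 3000 bp or more holds 27.8% of the members and 0.743% of the rest.

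In H1 embryonic stem cells all 4 clusters held H3K18ac regions, but each was small. HOXA held 3 regions over 0.4 kb, HOXC 2 over 0.4 kb, and HOXB and HOXD 2 each over 0.2 kb. The 9 regions were 100 bp (6 regions) or 200 bp (3 regions) long, with score ranks from 23360 to 57551 in a list of 65946. The cover of the 4 intervals together was 0.194%, or 0.362 times the autosomal mean of 0.535%. For the single clusters 39.8% (HOXA), 65.7% (HOXB), 41.8% (HOXC) and 53.1% (HOXD) of all autosomal tiles of the same length were covered at least as much. None of the 4 stood apart from such tiles in the H1 list.

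The H1 regions lay in other places than the IMR90 cover. In HOXA they were at 27225101 to 27225300, 27227501 to 27227600 and 27229301 to 27229400, between 105.1 and 109.4 kb from the low-numbered edge, on the side of HOXA13. In HOXB they were at 46763901 to 46764000 and 46796501 to 46796600, towards HOXB13. HOXC had 1 region on each side of its midpoint, at 54412001 to 54412200 on the low-numbered side and 54345301 to 54345500 on the side of HOXC13. HOXD likewise had 177036701 to 177036800 towards HOXD1 and 176944201 to 176944300 towards HOXD13, a gene of the digits. The H1 region closest to an IMR90 region was the first of HOXA, 33.0 kb away.

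No H3K18ac region of the clusters was shared between the cell lines. Of the 36 IMR90 members 0 overlapped an H1 region (exact 95% binomial interval 0 to 9.74%), against 14.5% of the whole IMR90 list. Among regions of 3000 bp or more the count was 0 of 10, against 37.0% of the 637 in the list. Of the 9 H1 members 0 overlapped an IMR90 region (exact 95% interval 0 to 33.6%), against 19.0% of all H1 regions and 10.2% of those of 100 or 200 bp. The intervals cover counting error only, and regions that lie side by side in 1 domain are not independent. The lists also differ in unknown depth, so a region missing from one may have been just under the authors' threshold.

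BrdU regions were few in the clusters, as over most of the genome. Per 620.0 kb, the length of the 4 intervals, the autosomal mean was 1.23 regions in IMR90, 1.31 in Saos-2, 1.07 in H1 control and 0.358 in the H1 knockdown, and the clusters held 2, 0, 2 and 0. At least 1 region was found in 21.8% (IMR90), 23.2% (Saos-2), 23.5% (H1 control) and 10.9% (H1 knockdown) of the 220 kb tiles. Counts of this size do not separate the clusters from the rest of the lists, nor the knockdown from the control. HOXA and HOXD held no BrdU region in any list.

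The 4 BrdU regions were single windows or pairs of windows, and none overlapped a BrdU region of another list. Over the whole H1 control list, the share with an overlap was 20.5% for IMR90, 34.0% for Saos-2 and 3.07% for the knockdown. Over the whole IMR90 list it was 18.1% for H1 control and 26.8% for Saos-2. In H1 control, a region of 200 bp at 46662101 to 46662300 in HOXB had score rank 2140 of 5086. It lay inside the 26800 bp block that carried H3K18ac in IMR90, while the nearest H1 H3K18ac region was 101.6 kb away. The other H1 control region, 100 bp at 54445101 to 54445200, was on the low-numbered side of HOXC, 32.9 kb from H1 H3K18ac. In IMR90, the HOXC region of 100 bp at 54373401 to 54373500 was 172.1 kb from the nearest IMR90 H3K18ac region. The IMR90 BrdU region of HOXB, 100 bp at 46796501 to 46796600, had the same start and end as an H3K18ac region of H1.

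Thus 0 of 2 BrdU members in IMR90 and 0 of 2 in H1 control overlapped H3K18ac of their own line, and 1 of 2 in each overlapped H3K18ac of the other line. In the whole lists 2.44% of IMR90 BrdU regions overlapped IMR90 H3K18ac and 9.49% overlapped H1 H3K18ac, and of H1 control BrdU regions 8.75% overlapped H1 H3K18ac and 2.36% IMR90 H3K18ac. Windows with identical start and end in the IMR90 BrdU and H1 H3K18ac lists numbered 50 of 5743 (0.871%). With 2 regions in each list the shares in the clusters have no useful precision.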

How the data were processed

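Regions were read from 6 deposited lists, 1 per pulled-down library; the 6 inputs were not analysed here. Bowtie 0.12.7 and the build hg19 appear in the submitters' processing notes. The sources used here give neither the region caller nor its threshold or use of inputs. All regions lie on a 100 bp grid. Each region carries a score that the authors deposited without stating its meaning, and it was used only within its own list. Read depth is unknown.

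Counts, covered length, overlaps (at least 1 bp), 10 kb bins and domains (gaps up to 1 kb) were computed with pandas 2.3.3, numpy 2.4.6 and scipy 1.17.1 under Python 3.11.15. Plots were drawn by matplotlib 3.10.9. The code for overlaps, merging and tile cover was tested on simulated lists. The code for distances, for assigning regions to intervals and for parts of clusters was not checked against planted values. Autosomal means and tiles used a span of 2878 Mb, up to the last region of each autosome, including assembly gaps. With 1 library per group no test was made. Regions named were the 3 longest per cluster in each H3K18ac list, all BrdU regions and, where a domain or an edge turns on it, others chosen after their values were seen. The clusters, gene lists and alternatives were chosen with earlier results of these data known. A planned count at HOX cofactor genes needed an hg19 annotation and was not run.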

Additional observations from a re-analysis of the deposited data

How the results depend on the processing

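Of 114 recomputed values, 102 stayed within 1.5 times the reported count or length, or within the exact binomial interval of the reported share. Part of these could not have moved, so the tally is no measure of robustness. A count of 0 stays 0 under a stricter filter, merging keeps the covered length, and widening both borders equally keeps the midpoint. Assigning regions by any overlap, widening the borders by 10 kb and shifting the tiles moved none of the values recomputed under them. Requiring 50% overlap left the shared counts at 0, as it had to. Merging regions within 1 kb left 6 regions in HOXA and 4 in HOXB in IMR90, by construction, with the same covered length. When only regions in the upper 50% of scores were used, H1 kept 1 H3K18ac region over 0.2 kb in HOXA, 0 regions over 0.0 kb in HOXB and 0 over 0.0 kb in HOXD, and the BrdU counts fell to 0 in IMR90 and 1 in H1 control. When each interval was split into 3 parts and the outer 2 were compared, the low-numbered part held 100% of the IMR90 cover of those 2 parts in HOXA, against 90.4% by midpoint, but this leaves out 13.4 kb in the middle part; of the whole HOXA cover 65.4% lay in the low-numbered part. The same share of the H1 cover in HOXC went from 50% to 0%. The H1 and BrdU values therefore rest on 1 to 3 small regions per cluster, whereas the IMR90 cover of HOXA and HOXB does not. No paired analysis was possible because each group had 1 library. No alternative could show how many regions would recur in a second library, and unknown depth limits every comparison between lists.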
